A study of Caenorhabditis elegans with 6 samples.

Results

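The genes described here encode the Patched-related and sterol-sensing domain proteins of Caenorhabditis elegans, measured in whole embryos. They were chosen by name: every probe set whose only annotated gene symbol is a numbered ptr-, ptc- or ptd- gene, or che-14, daf-6, ncr-1, ncr-2 or scp-1. This gave 32 genes, measured by 43 of the 22548 probe sets that are not array controls. A probe set is a group of short probes on the Affymetrix C. elegans array that together give 1 value, and some match more than 1 gene. The rule uses names only, no measured value. Embryos of the wild-type strain N2 were compared with embryos of yap-1(ys38), a mutant of the worm counterpart of the Hippo pathway coactivator YAP, each strain in 3 biological replicates that were hybridised to 1 array apiece. Embryos came from bleached egg-bearing adults, the labels give no embryo age, no treatment was used, and no other allele is stated for either strain. The comparison was made to find genes through which the Hippo pathway keeps cells polarised. The submitters excluded the second wild-type array as too different from its replicates, so the strains were tested on wild type replicates 1 and 3 against all 3 yap-1(ys38) arrays, and values of wild type replicate 2 are described apart.

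Patched is the membrane receptor that binds Hedgehog in flies and vertebrates, and it carries a sterol-sensing domain, a bundle of membrane helices shared with the cholesterol transporter NPC1 and with SCAP, the escort of the lipid regulator SREBP. Worms lack a Smoothened-based Hedgehog pathway, yet they have an enlarged family of Patched-related proteins and many secreted Hedgehog-related proteins. Members of the family act at apical surfaces, in tube lumens, in the cuticle and its molting, and in the germ line. Whole embryos mix many tissues, so fewer cells of a type and less RNA per cell cannot be told apart in such samples.

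All values are MAS5 signals, probe set intensities on a linear scale that the authors scaled globally per array. Wild type replicate 2 stood apart across the arrays, with a median intensity of 86.6 against 118 to 133 in the other 5. Its 3-prime to 5-prime signal of control transcripts, a gauge of RNA quality, had a mean log2 ratio of 3.64. Wild type replicate 3 had 3.74 and the remaining arrays 2.68 to 3.07. Same-numbered arrays of the strains also deviated together. yap-1 itself gave intensities of 267 and 555 (wild type 1 and 3), 443 (wild type 2) and 371, 260.4 and 302 (mutant) (log2 fold change -0.32, 95% confidence interval -1.10 to 0.45, limma adjusted p = 1). The labels do not state what the allele changes, so this level does not check the genotype. Markers of muscle, neurons, intestine and epidermis had values in all arrays, as did yolk protein and sperm genes of adults. The yolk and sperm genes tested below read as low as 3.05 and 3.33 in single arrays.

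No Patched-related or sterol-sensing domain gene had a called change in yap-1(ys38) embryos. Of the 43 probe sets, 36 for 27 genes were bright enough to be tested, with a geometric mean above 53.5 over the 6 arrays. None passed an adjusted p of 0.05 in limma (lowest adjusted p = 1), where 0% of all 13529 probe sets tested did, and 0 of 36 had an unadjusted p under 0.05, against 1.04% of all tested. At an unadjusted p under 0.05 the methods' t-test gave 1 of 36, ptr-17 (1.49% of all tested). The replicate block on 5 arrays gave 1, the second probe set of ptr-6 (3.46%), and the fit without wild type replicate 1 gave 1, ptr-11 (6.41%). Log2 fold changes of the members ran from -0.58 to 0.31, 25 below 0 and 11 above, with a median of -0.06. Across all probe sets tested 48.8% lay below 0 and the median was 0.01. Under the 15 alternatives 0 members passed the adjusted threshold, where the shares of all probe sets that did were 0.0887% with the replicate block on 5 arrays, 0.0222% without wild type replicate 1 and 0% otherwise. The strain difference was smaller than the difference between wild type replicates 1 and 3 for 30 of the 36, against 75.5% of all tested.

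The intervals set how large a change could have gone unseen. They come from the fit without the replicate block, so same-numbered arrays were not paired in them. For 27 of 36 members the 95% confidence interval stayed within a 2-fold change in either direction, which held for 72.8% of all probe sets tested. For 13 it stayed within 1.5-fold, against 23.6% of all. Standard errors of the log2 fold change ran from 0.19 to 0.64, with a median of 0.25. The mutant arrays lay wholly on one side of both wild-type arrays for 2 members. These were the dimmer probe set of ptr-6, below (4.92% of all tested lay below in this way), and ptr-17, above (5.9% of all).

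**Figure D1:**
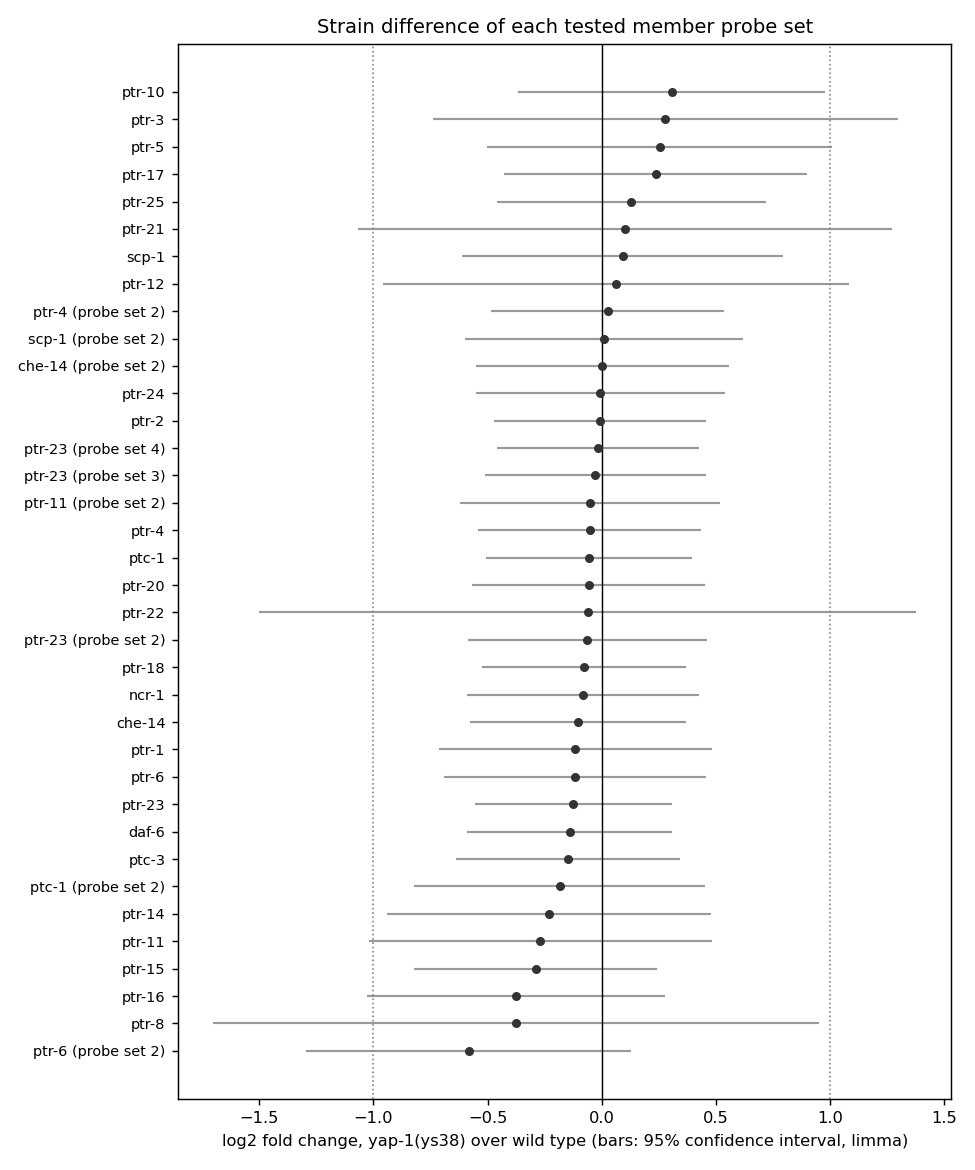
Log2 fold change of yap-1(ys38) over wild type (x axis) for the 36 tested member probe sets (y axis), as points with 95% confidence intervals from limma on 5 arrays. Dotted lines mark a 2-fold change, and the fit had no replicate block. Every interval includes 0, and the points run from -0.58 (second probe set of ptr-6) to 0.31 (ptr-10).

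The Patched proteins themselves came first. ptc-1, needed for cytokinesis in the germ line, gave intensities of 1713 and 2460.4 for the wild-type replicates tested, 1726 for wild type replicate 2, and 1898, 2121 and 1911 for the mutant arrays. All mutant values lay between those of wild type replicates 1 and 3. Mean log2 intensity was 11.003 ± 0.37 (SD, n = 2) and 10.95 ± 0.09 (SD, n = 3), a log2 fold change of -0.06 (SE 0.20). A second ptc-1 probe set read 261 and 308 against 199, 255 and 307, with 391 in wild type replicate 2, and gave -0.18 (SE 0.28). ptc-3, an essential gene implicated in osmoregulation, read 2225 and 1682 against 2154, 1536 and 1609. The strains overlapped, and the log2 fold change was -0.15 (SE 0.22), an interval from 0.642-fold to 1.27-fold. In wild type replicate 2 ptc-3 stood far lower, at 684. The remaining Patched gene of the worm, ptc-2, is annotated as a pseudogene and shares its only probe set with ptc-1, so it was not counted as a member. That shared probe set read 108 and 114 against 71.0, 125 and 68.9, with 130 in wild type replicate 2 (log2 fold change -0.39, SE 0.39).

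Genes of apical surfaces, lumens and glia formed the next group, and none passed the test between strains. che-14, which resembles Dispatched and is needed for apical secretion in epidermal cells and in the amphid sense organ, read 835 and 1035 in wild type and 871, 961 and 773 in the mutant. The arrays overlapped, with a log2 fold change of -0.10 (SE 0.21) and 0.0032 (SE 0.24) at a second probe set. daf-6, which limits the size of the lumen that glia form around sensory cilia, read 839 and 864 against 774, 701 and 849 (-0.14, SE 0.20). Its wild-type values lay close together, at 9.73 ± 0.03 (SD, n = 2) on the log2 scale, and 1 mutant array lay between them. ptr-4, required for the precuticle matrix on the outer surface of the embryo, read 1787 and 1314 against 1525, 1690.2 and 1249 (-0.05, SE 0.22), and its second probe set gave 0.03 (SE 0.23). ptr-10, whose promoter is widely used to mark glia, read 156 and 231 against 213, 278 and 218 (0.31, SE 0.30). It had the highest log2 fold change of the members, yet 2 of the 3 mutant values lay between the wild-type ones. ptr-18, which acts in the epidermis to clear the Hedgehog-related protein GRL-7, read 759 and 744 against 718, 661 and 759.8 (-0.08, SE 0.20).

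Next came the sterol transporters and the SCAP counterpart. ncr-1 encodes 1 of the NPC1 proteins of the worm, which move cholesterol inside cells and whose joint loss drives larvae into the dauer state. It read 493 and 504 in wild type and 407, 516 and 498 in the mutant (log2 fold change -0.08, SE 0.22). The other NPC1 gene, ncr-2, read 69.9 and 51.1 against 43.7, 26.4 and 43.0, with 45.1 in wild type replicate 2. All mutant values lay below wild type replicates 1 and 3, but the probe set was too dim to be tested. scp-1 read 188 and 241 against 300.3, 180.4 and 214 (0.09, SE 0.31), and its second probe set read 209.7 and 189 against 213, 179.6 and 211 (0.01, SE 0.27). Both scp-1 probe sets overlapped between the strains.

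Of the 24 ptr- genes, 21 had a probe set that could be tested. Among their 27 tested probe sets 19 lay below 0 and 8 above, with a median log2 fold change of -0.05. ptr-23 was measured by 4 probe sets. The brightest read 3800.3 and 4599 in wild type against 3706, 3259 and 4674 in the mutant (-0.12, SE 0.19), and the others gave -0.06, -0.03 and -0.02, so the probe sets differed by less than their standard errors. ptr-25 read 1793 and 1127 against 1631, 1878 and 1226 (0.13, SE 0.26). ptr-1 read 539 and 889 against 619, 571 and 739 (-0.12, SE 0.26), with all mutant values inside the wild-type range. ptr-2 read 1267 and 1509 against 1144, 1539 and 1475 at its bright probe set (-0.01, SE 0.20). The 2 other ptr-2 probe sets read 1.26 to 77.5 over the 6 arrays and were not tested, so only 1 of 3 bears on this gene.

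The lowest p-values among the other ptr- genes, none under 0.05, belonged to genes whose strains overlapped or nearly did. ptr-16 read 371 and 504 against 347, 255 and 420.1 (log2 fold change -0.37, SE 0.29). ptr-15 read 415 and 543 against 376, 369 and 422 (-0.29, SE 0.24). In both genes 1 mutant array lay above wild type replicate 1. ptr-11 read 463 and 957 against 497, 478 and 708 (-0.27, SE 0.33), and its second probe set gave -0.05 (SE 0.25). Here wild type replicate 3 was high, and without it the value turned to 0.25. ptr-17 read 128 and 123 against 153, 155 and 138, the mutant arrays above both wild-type ones (0.24, SE 0.29). ptr-5 read 227 and 139 against 164, 226 and 256 (0.25, SE 0.33).

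The lowest unadjusted p of all members, 0.0964, belonged to the dimmer of the probe sets of ptr-6, a gene picked out after its values were seen. It read 309 and 277 in wild type against 139, 217 and 247 in the mutant (log2 fold change -0.58, SE 0.31, interval -1.30 to 0.13). With the replicate block on 5 arrays the log2 fold change was -0.66 (limma unadjusted p = 0.0343, adjusted p = 1). That block leaves yap-1(ys38) replicate 2 without a partner, so the array does not enter this fold change. Wild type replicate 2 read 86.0, below every mutant array, and with all 6 arrays the log2 fold change was 0.0052. Of the 5 arrays tested, yap-1(ys38) replicate 1 lay lowest. The brighter ptr-6 probe set read 322 and 462 against 384, 348 and 338 (-0.12, SE 0.25), with 175 in wild type replicate 2, and there the strains overlapped. The probe sets of this gene thus did not show the same separation. The remaining tested genes were ptr-3, ptr-12, ptr-14, ptr-21 and ptr-24. Together with ptr-6 their 7 probe sets had log2 fold changes from -0.58 to 0.28, with standard errors from 0.24 to 0.52. Just above the intensity limit lay ptr-3 (geometric mean 65.3), and just below it ptr-9 (50.7) and ptd-2 (49.7). These means include wild type replicate 2, where ptr-9 (21.2) and ptd-2 (35.1) read below every other array. Including ncr-2, 5 genes had no probe set bright enough, ptr-13 and ptr-19 being the others. The 7 untested probe sets read 1.26 to 80.5.

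The widest differences among the members set wild type replicate 2 against the other arrays. In that array 26 of the 36 members read below all 5 other arrays, against 34.7% of all probe sets tested, and 4 read above all 5, against 32.4%. Its log2 difference from the mean of wild type replicates 1 and 3 had a median of -0.80 over the members and 0.01 over all probe sets tested. These counts and medians describe 1 array and carry no test.

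**Figure D2:**
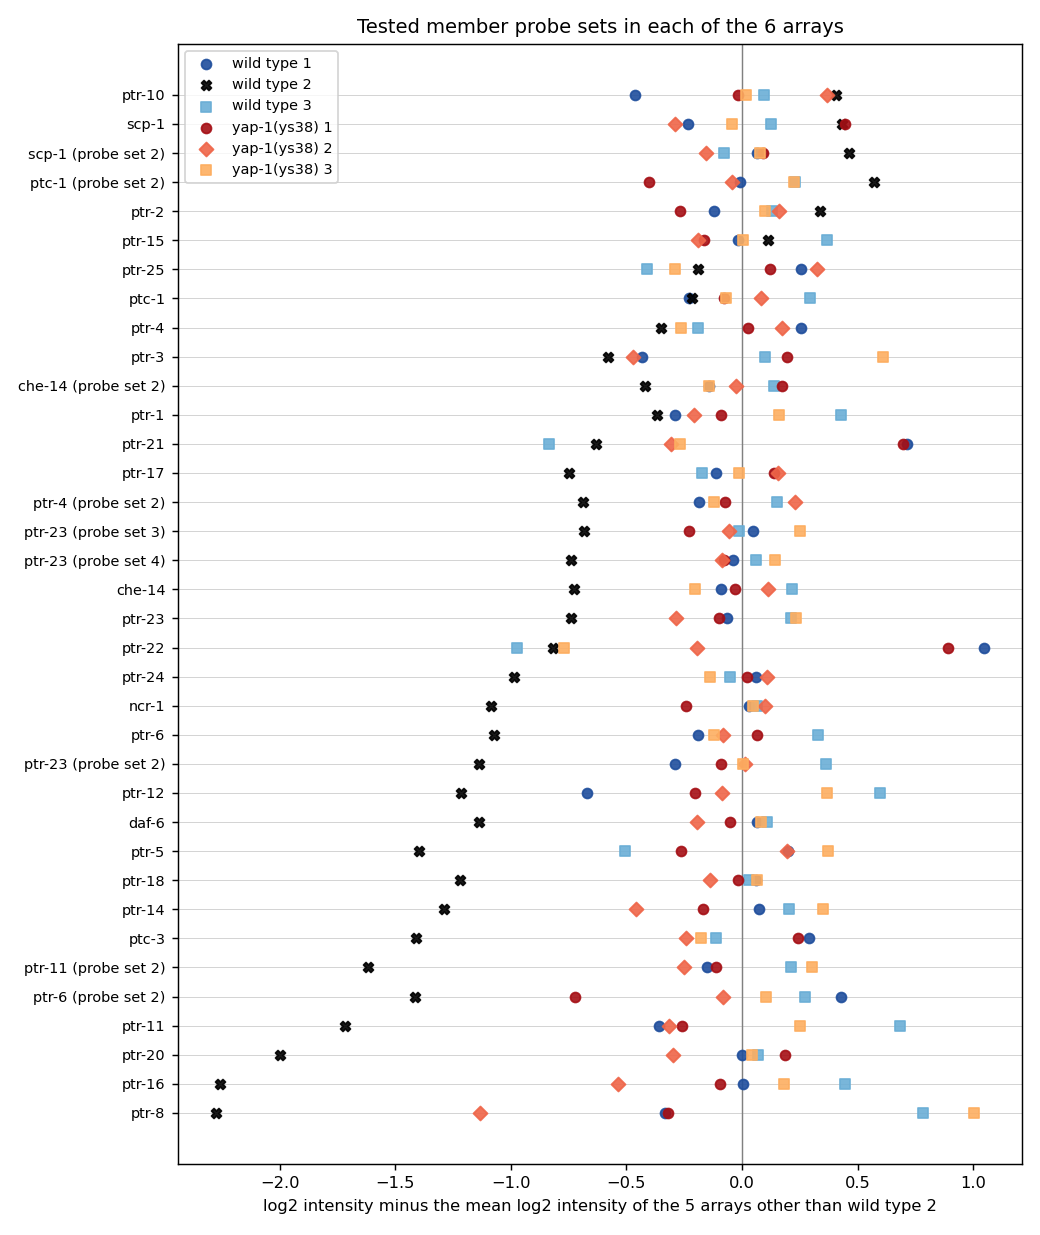
Log2 intensity in each of the 6 arrays for the 36 tested member probe sets, relative to the mean of the 5 arrays other than wild type 2 (x axis). Rows are ordered by the difference of wild type 2 from wild type 1 and 3. Black crosses for wild type 2 lie leftmost in 26 rows, and wild type and yap-1(ys38) symbols intermingle otherwise.

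The low values in wild type replicate 2 were widest among ptr- genes. ptr-8 read 44.0 there, against 169 and 366 in the other wild-type arrays and 170.1, 96.9 and 427 in the mutant. ptr-16 read 77.3 and ptr-20 read 164, while the remaining arrays of ptr-20 read 657 and 690.3 (wild type) and 748, 534 and 678 (mutant). For ptr-20 these 5 arrays lay close together, and the strain difference was -0.06 (SE 0.22). The log2 differences of replicate 2 from the other wild-type arrays were -2.50 for ptr-8, -2.48 for ptr-16 and -2.03 for ptr-20. ptr-11 (181) stood at -1.88 and ptc-3 at -1.50. daf-6 (364), ptr-18 (312), ncr-1 (227) and ptr-5 (75.0) also read below every other array, with differences from -1.27 to -1.13. So did che-14 (538, and 255 at its second probe set), ptr-23 (2378) and ptr-4 (1174), at -0.79, -0.81 and -0.38 for their brightest probe sets. ptr-17 (82.4) and ptr-1 (511) read lowest there as well, at -0.61 and -0.44.

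A smaller group did not share this. Taking the brightest probe set of each of the 27 tested genes, 19 read lowest in wild type replicate 2, 2 read highest and 6 lay within the range of the other arrays. Highest were ptr-2, at 1742, and ptr-10, at 286. Within the range lay ptc-1, ptr-15 (455), ptr-25 (1316), scp-1 (298), ptr-21 and ptr-22. The second probe sets of ptc-1 and scp-1 read highest there, at 391 and 276. The members thus did not move as a block: on the log2 scale, wild type replicate 2 differed from the other wild-type arrays by -2.50 to 0.59 among ptr- genes alone.

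Other gene lists moved in the same array, and their part in these values was not tested. Over all probe sets tested 34.7% read lowest and 32.4% read highest in that array. All 17 maternal and early embryo genes were tested, and 13 read highest in wild type replicate 2, with a median log2 difference of 0.79 from the other wild-type arrays. The summed intensity of the tested genes was 49951 there, 32062 and 37253 in the other wild-type arrays, and 29549 to 39792 in the mutant. Of 8 muscle genes 6 read lowest (median -1.29), and of 8 neuron genes 7 did (-1.23). The summed muscle intensity was 23184 in replicate 2, 37841 and 47914 in the other wild-type arrays and 32471 to 38608 in the mutant. For neurons it was 8226, 11647 and 16425, and 12374 to 13709.5. Epidermal genes differed by a median of -0.33, glial and sensory tube genes by -0.21 and excretory system genes by -0.77. Of 8 late embryo cuticle genes 7 read lowest (median -0.50). Of 7 intestinal genes 3 read lowest and 2 highest (median -0.05), while their summed intensity was 5499.9 in replicate 2, 16399 and 18379.9 in the other wild-type arrays and 11390.5 to 18183 in the mutant. All 5 yolk protein genes and 15 of 21 sperm genes, products of adults, read highest in replicate 2. Yolk sums were 12316 there, 7058 and 131 in the other wild-type arrays and 284 to 4499.6 in the mutant, and sperm sums 8473, 6629 and 1269.7, and 1676 to 6518. No marker was at 0, since every deposited value is positive. Wild type replicate 3 had a 3-prime to 5-prime signal ratio like that of replicate 2. The part of RNA quality in the members' values was not tested.

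**Figure D3:**
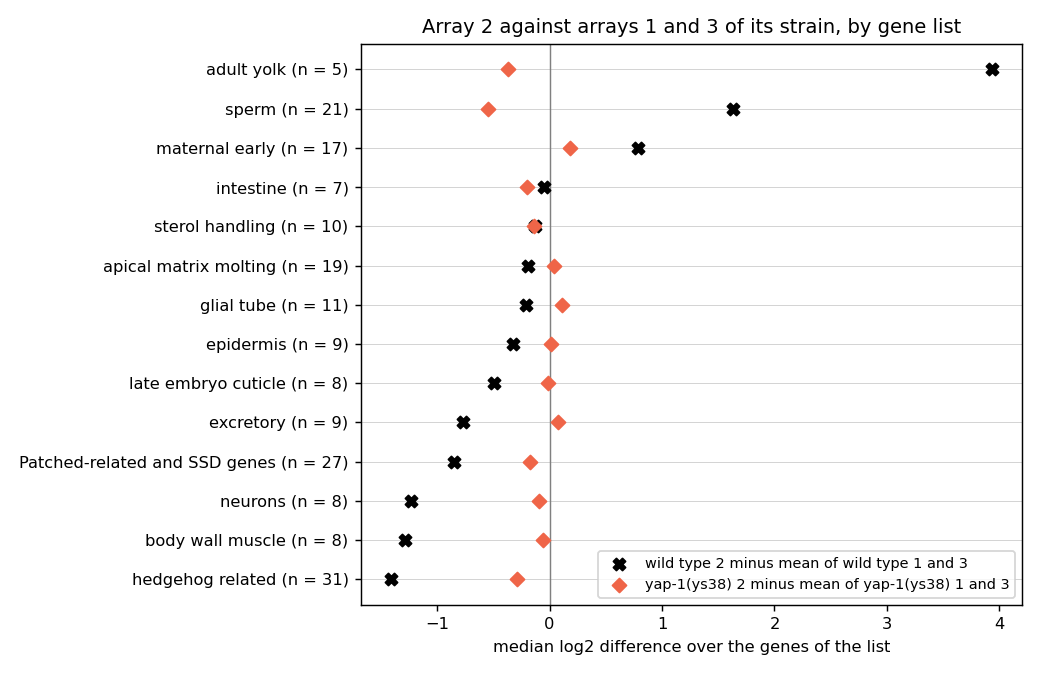
Median log2 difference of array 2 from the mean of arrays 1 and 3 of the same strain (x axis), for the 27 tested Patched-related and sterol-sensing domain (SSD) genes and for each gene list, with the number of genes tested. Crosses are wild type and diamonds are yap-1(ys38). In wild type the members lie at -0.85, between the excretory system and neuron lists, and in yap-1(ys38) at -0.17.

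In the mutant, replicate 2 did not stand apart to this extent. The median log2 difference of yap-1(ys38) replicate 2 from replicates 1 and 3 was -0.11 over the 36 members and 0.01 over all probe sets tested. Taking all 6 arrays therefore changed the strain comparison. The members' median log2 fold change became 0.25, against 0.04 over all probe sets tested, and still 0 of 36 had an unadjusted p under 0.05 (0.85% of all tested). Within same-numbered pairs the members' median of yap-1(ys38) minus wild type was -0.03 for the arrays numbered 1, 0.83 for those numbered 2 and -0.03 for those numbered 3. The sign of the members' median thus depended on whether wild type replicate 2 was used.

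Some members followed the replicate number in both strains. The labels do not say what the number marks, so these values are a description from 1 array of each kind. ptr-22 read 323 and 290.2 in the arrays numbered 1 of wild type and yap-1(ys38), and 79.6 and 91.6 in those numbered 3. Its arrays numbered 2 read 88.8 and 136. The pairs thus differed far more than the strains, whose log2 fold change was -0.06 with an SE of 0.64, the widest of the members. ptr-21 showed the same order, with 193 and 190.5 in the arrays numbered 1 and 65.7 and 97.5 in those numbered 3. ptr-8 ran the opposite way, at 169 and 170.1 against 366 and 427. A difference of at least 2-fold between the arrays numbered 3 and 1 in both strains was found at 1 member in each direction, ptr-8 higher (0.976% of all tested) and ptr-22 lower (1.21%).

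Over the 36 members the log2 differences of array 3 from array 1 in wild type and in yap-1(ys38) correlated at a Pearson r of 0.68, against 0.47 over all 13529 probe sets tested. Members far from 0 in both strains weigh heavily in this r: ptr-22 (-2.02 and -1.66), ptr-21 (-1.55 and -0.97) and ptr-8 (1.12 and 1.33). No r without them was computed, so the value does not describe the family as a whole. Points on the same axis share the same 2 arrays, and probe sets are not independent replicates. The direction was the same in both strains for 26 of 36 members, against 63.2% of all. Exceptions included ptr-5, at -0.70 in wild type and 0.64 in yap-1(ys38), and ptr-6 at its second probe set, at -0.16 and 0.82. The median log2 difference was 0.25 in wild type and 0.12 in the mutant. Between the same arrays the adult-derived lists differed most: yolk genes had medians of -5.79 and -4.25 and sperm genes -2.52 and -1.96. Their part in the members' values was not tested.

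**Figure D4:**
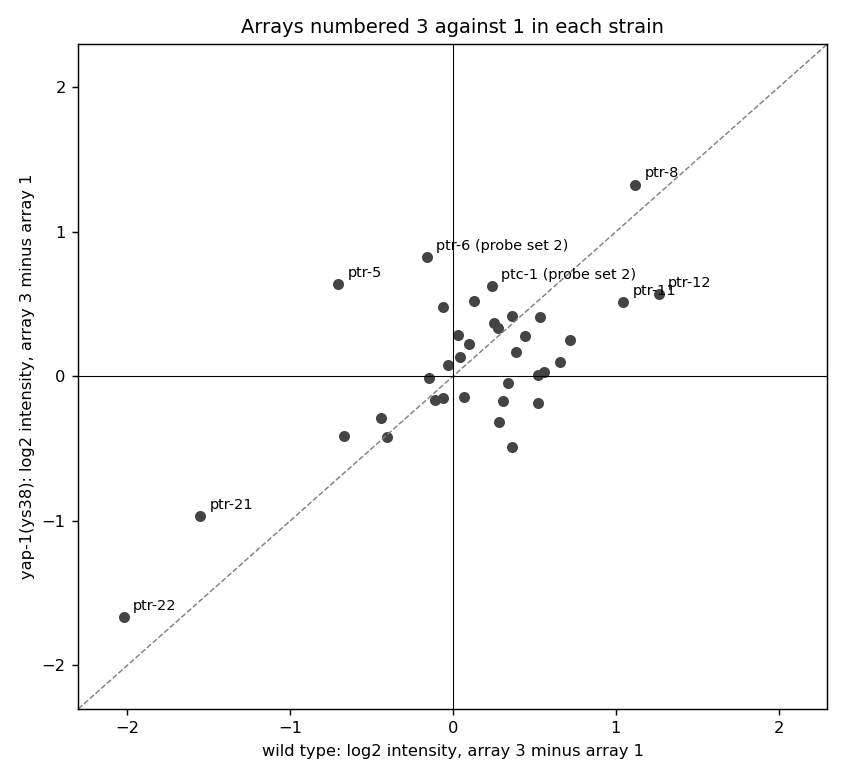
Log2 intensity of array 3 minus array 1 in wild type (x axis) and in yap-1(ys38) (y axis), 1 point per tested member probe set, with equality dashed. ptr-22 and ptr-21 lie low and ptr-8 high in both strains, while ptr-5 lies on opposite sides of 0.

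The secreted partners and pathway neighbours gave the background to these genes. Of 54 measured Hedgehog-related genes (wrt-, grd-, grl-, hog-1 and qua-1), 31 were tested and 0 were called in either direction, with 0 at an unadjusted p under 0.05. Of these, 23 lay below 0 and 8 above, with a median log2 fold change of -0.14, where 48.8% of all probe sets tested lay below 0. grl-7, whose product PTR-18 clears, read 3091 and 3812 in wild type against 3151, 2215 and 2819 in the mutant (-0.35, SE 0.20). wrt-1 read 3652 and 3513 against 3140.5, 3068 and 2769 (-0.26, SE 0.15), the mutant arrays all lower (4.92% of all tested). wrt-10 read 3138 and 2674 against 3569, 3960.2 and 3059.7 (0.28, SE 0.17). In wild type replicate 2, 28 of the 31 read below all other arrays, against 34.7% of all probe sets tested. Their median log2 difference from the other wild-type arrays was -1.41 over the 31, while wrt-10 did not read lowest, at 3759.

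Of 13 sterol-handling genes 10 were tested and 0 were called (median log2 fold change -0.02). hmgs-1, the HMG-CoA synthase of the mevalonate pathway, stood at 0.31 (SE 0.22), the nuclear receptor gene nhr-8 at -0.41 (SE 0.36) and let-767, a steroid and fatty acid dehydrogenase gene, at -0.12 (SE 0.17). Of 13 glial and sensory tube genes 11 were tested and 0 were called (median 0.01). lit-1, the Nemo-like kinase that acts against daf-6 in setting lumen size, read 1357 and 1217 against 1729, 1762 and 1489.7, the mutant arrays all higher (0.37, SE 0.18, limma adjusted p = 1). igdb-2 stood at 0.61 (SE 0.33) and the epithelial factor gene lin-26 at -0.25 (SE 0.16). Of 20 apical matrix and molting genes 19 were tested and 0 were called (median -0.03). nhr-23, a nuclear receptor gene of molting, alone among them had an unadjusted p under 0.05 in limma (1.04% of all tested). It read 774 and 862 against 1186, 1099 and 1105, the mutant arrays all higher (0.47, SE 0.19, limma adjusted p = 1). All mutant arrays lay above both wild-type ones for 5.9% of all tested. lit-1 and nhr-23 were named for having the lowest p of their lists. lpr-1 read 419 and 444 against 304, 382 and 280, the mutant arrays all lower (-0.43, SE 0.25), as for 4.92% of all tested. apl-1 stood at -0.25 (SE 0.23).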

How the data were processed

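The deposited table holds MAS5 signal intensities (linear scale) after the authors' global scaling of each array, per the series' design text and the submitters' processing notes. The authors' detection calls were not used here. All values were positive and were log2-transformed with no further scaling. The 77 control probe sets were left out, and the remaining 22548 were filtered at the 40th percentile of mean log2 intensity (geometric mean 53.5). The 13529 above it were tested with limma 3.58.1 in R 4.3.3 (eBayes with intensity trend, two-sided, Benjamini-Hochberg, threshold 0.05). The number of arrays limits the precision. Genes were named from the platform annotation, in which 20766 probe sets have 1 symbol, 887 several and 895 none listed. All 32 member symbols matched RefSeq (WBcel235). Sequences are not shown here.

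Members and lists were chosen with earlier results of these data known. Every member is accounted for. Values per array are given for members with a named role, the 6 others with the lowest p, the 3 others brightest and the 3 others with the widest range. Of each pathway list up to 3 genes with the lowest p are named, some by log2 fold change and SE only. The brightest probe set represents a gene. Replicate numbers come from the sample titles. Arrays that share a number departed together from their strains' means (correlations 0.36, 0.35 and 0.45), which was taken as pairing, and a replicate block was fitted beside the main design. Alternatives covered arrays, block, normalization, filter, floor, variance model, single replicates left out and the methods' t-test.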

Additional observations from a re-analysis of the deposited data

Results flagged for a closer look

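In wild type replicate 2, which the strain comparison does not use, 4 member probe sets read above every other array, including the other wild-type ones. ptr-2 read 1742 there, against 1144 to 1539 elsewhere. ptr-10 read 286, against at most 278. The second probe set of ptc-1 read 391, against at most 308, and that of scp-1 read 276, against at most 213. Such values are no rarity in that array, where 32.4% of all probe sets tested read above the other 5. No group held enough arrays for a check of single outlying samples.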

How the results depend on the processing

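No member passed an adjusted p of 0.05 under any of the 15 alternatives (lowest 0.738; 22 probe sets were followed one by one, that of ptr-6 chosen after its values were seen). With all 6 arrays, without or with the replicate block, the members' median log2 fold change moved to 0.25. The single values there turned to 0.16 for che-14, 0.27 for daf-6, 0.30 for ncr-1, 0.027 for ptc-1, 0.35 for ptc-3, 0.030 for ptr-1, 0.36 for ptr-11, 0.45 for ptr-16, 0.34 for ptr-18, 0.62 for ptr-20, 0.22 for ptr-22, 0.15 for ptr-23, 0.075 for ptr-4, 0.46 for ptr-8, 0.0052 for the second probe set of ptr-6 and -0.072 for scp-1. With the replicate block on 5 arrays ptr-20 turned to 0.081, ptr-22 to 0.024, ptr-25 to -0.0069 and ptr-8 to 0.12, and the block changed no call. With wild type replicate 2 absent, yap-1(ys38) replicate 2 has no partner in that block. The block thus gave the same log2 fold changes as leaving out yap-1(ys38) replicate 2, and its turns are not separate from those. Quantile normalization turned ptr-2 to 0.0014. Median centring turned no direction of these 22. The other filters, the variance model and the methods' t-test do not alter a log2 fold change, so they could turn none. The floor of 32 left these values as they were. The filter at the 60th percentile gave no value for members below it. Leaving out 1 replicate at a time moved the list median from -0.14 to -0.0044 with 0 members called. Single values crossed 0, most often without wild type replicate 3 (9 of 22): che-14 from -0.26 to 0.052, ncr-1 from -0.15 to 0.025, ptc-1 from -0.32 to 0.20, ptc-3 from -0.35 to 0.054, ptr-1 from -0.48 to 0.24, ptr-11 from -0.79 to 0.25, ptr-2 from -0.13 to 0.12, ptr-20 from -0.16 to 0.081, ptr-22 from -1.07 to 0.95, ptr-23 from -0.27 to 0.014, ptr-25 from -0.21 to 0.46, ptr-4 from -0.28 to 0.17, ptr-5 from -0.098 to 0.61, ptr-8 from -0.95 to 0.18 and scp-1 from -0.11 to 0.27. The cause of these turns was not tested. Members near the intensity limit of 53.5 have uncertain sizes.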
